A study of Mus musculus with 8 samples.

Results

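Acetylation of histone H4 was mapped by chromatin immunoprecipitation and sequencing in C57BL/6 mouse macrophages grown from bone marrow. The genome was read in windows of 1 kb (bins), and a bin was called in a library where the deposited peaks of that library covered at least 500 bp of it. The regions described here are the 1518 bins on chromosomes 1 to 19 that carried H4 acetylation peaks in every library without PAM3, in neither library given PAM3 alone, and in at least 1 library given 25HC and then PAM3. They are called the retained bins below. They were chosen by these calls among 39826 bins called in all 4 libraries without PAM3, of which they are 3.81%, and among 115134 bins called in at least 1 library. Calls and called lengths of the 8 libraries therefore describe the choice and carry no test.

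The 4 groups were untreated cells, cells given PAM3 (PAM3CSK4), cells given 25HC (25-hydroxycholesterol), and cells given 25HC before PAM3. Mice A and B each gave 1 library to every group, and all cells were of the C57BL/6 strain. The label for stimulation time carries no unit and reads 0 in the libraries without PAM3 and 18 in those with it, so PAM3 and that time cannot be told apart. The windows of all 10 macrophage markers, among them Csf1r, Adgre1 and Spi1, held at least 500 bp of peaks in all 8 libraries, with summed lengths of 67429 to 100164 bp. Of 8 T and B cell markers 3 did, with 6599 to 11398 bp in all and Cd3e, Cd8a and Pax5 at 0. Of 7 neutrophil markers 2 did, with 4790 to 8811 bp in all and Ly6g, S100a9 and Cxcr2 at 0. Of 5 dendritic cell markers 3 did, with 16546 to 30022 bp, and of 5 autosomal fibroblast, endothelial and erythroid markers 3 did, with 13506 to 17783 bp. The libraries held 48446 to 54552 peaks that covered 56.6 to 72.4 Mb in all. PAM3 mouse A had the shortest and PAM3 mouse B the longest covered length.

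Acetylated H4 lies over active promoters and enhancers, where it loosens nucleosomes and is read by bromodomain proteins. PAM3 is a synthetic lipopeptide that Toll-like receptor 2, paired with Toll-like receptor 1, senses on macrophages; the signal runs through MyD88 to NF-kB and AP-1. 25HC is made from cholesterol by cholesterol 25-hydroxylase in activated macrophages, holds back the cholesterol-synthesis factor SREBP2 and is a ligand of the liver X receptors.

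Sequence can be shown for the retained bins that contain an annotated start site. The promoters below were chosen for bins that were called in both libraries given 25HC then PAM3; Mfap1a, Wdr76, Tent4b and Prkd2 were picked from the start-site genes named by rule, and Fcgr3 after its values were seen. Sequences are from RefSeq on GRCm38.p6, 5′ to 3′ on the strand of the gene, and capitals mark the bases from the annotated start on.
Mfap1a: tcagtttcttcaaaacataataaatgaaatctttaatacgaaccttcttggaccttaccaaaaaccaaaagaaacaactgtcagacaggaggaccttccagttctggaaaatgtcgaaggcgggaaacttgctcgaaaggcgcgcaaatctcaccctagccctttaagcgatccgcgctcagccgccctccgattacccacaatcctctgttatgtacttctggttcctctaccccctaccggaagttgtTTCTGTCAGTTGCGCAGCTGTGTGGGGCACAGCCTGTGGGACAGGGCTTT
Wdr76: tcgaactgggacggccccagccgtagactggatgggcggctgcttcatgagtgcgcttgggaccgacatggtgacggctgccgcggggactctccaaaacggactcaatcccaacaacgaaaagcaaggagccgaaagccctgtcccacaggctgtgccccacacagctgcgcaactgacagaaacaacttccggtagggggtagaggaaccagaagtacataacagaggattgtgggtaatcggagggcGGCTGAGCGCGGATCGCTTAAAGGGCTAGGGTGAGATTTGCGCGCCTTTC
Tent4b: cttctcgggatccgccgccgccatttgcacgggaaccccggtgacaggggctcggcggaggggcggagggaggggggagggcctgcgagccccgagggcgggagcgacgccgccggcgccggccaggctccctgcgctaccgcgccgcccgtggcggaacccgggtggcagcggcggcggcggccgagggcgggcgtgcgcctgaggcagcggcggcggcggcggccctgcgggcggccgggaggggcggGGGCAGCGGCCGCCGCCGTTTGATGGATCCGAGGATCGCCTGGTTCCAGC
Prkd2: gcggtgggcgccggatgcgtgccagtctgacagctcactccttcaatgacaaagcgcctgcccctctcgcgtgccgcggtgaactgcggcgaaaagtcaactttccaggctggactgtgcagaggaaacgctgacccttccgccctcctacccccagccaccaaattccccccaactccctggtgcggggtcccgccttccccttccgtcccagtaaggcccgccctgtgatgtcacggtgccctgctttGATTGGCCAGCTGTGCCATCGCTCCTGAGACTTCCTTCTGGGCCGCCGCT
Fcgr3: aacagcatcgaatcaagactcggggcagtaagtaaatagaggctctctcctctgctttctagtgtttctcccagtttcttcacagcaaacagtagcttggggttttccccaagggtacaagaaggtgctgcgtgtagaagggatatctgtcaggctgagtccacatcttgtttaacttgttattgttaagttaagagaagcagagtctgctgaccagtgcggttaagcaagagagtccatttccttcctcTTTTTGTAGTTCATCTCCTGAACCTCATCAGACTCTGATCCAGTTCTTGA

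Mfap1a, a spliceosome component gene, lies at chr2:121506607-121506906 on the minus strand, and Wdr76, a WD-repeat gene, at chr2:121506473-121506772 on the plus strand. The pair shares 1 retained bin and is read outward from it. The window of Tent4b, a non-canonical poly(A) polymerase, is chr8:88199632-88199931 on the plus strand. That of Prkd2, protein kinase D2, is chr7:16842652-16842951 on the plus strand. That of Fcgr3, a receptor for the constant part of IgG, is chr1:171059354-171059653 on the minus strand. GC content ran from 81% for Tent4b, with 48 CpG sites, through 64.3% for Prkd2, 59% for Wdr76 and 48.7% for Mfap1a to 45% for Fcgr3, with 4 CpG sites.

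The peaks over these promoters were long without PAM3 and short or missing with it. The bin of Mfap1a and Wdr76 had 1000 bp called in untreated A, untreated B and 25HC A and 729 bp in 25HC B, 0 bp in PAM3 A and B, and 1000 bp in both libraries given 25HC then PAM3. The Tent4b bin had 1000 bp called in all 4 libraries without PAM3, 421 and 401 bp with PAM3, and 1000 bp in both libraries given 25HC then PAM3. The bin of Prkd2 held 1000 bp in all 4 libraries without PAM3, 366 and 375 bp with PAM3, and 1000 and 799 bp with 25HC then PAM3. At Fcgr3, which mouse macrophages express as an activating receptor, the lengths were 1000 bp in all 4 libraries without PAM3, 321 and 327 bp with PAM3, and 1000 and 980 bp with 25HC then PAM3. Only the first of these bins held no PAM3 peak; in the other bins a shorter PAM3 peak remained.

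Motif letters were searched on both strands of the 87 promoter windows, of 77 genes, that lie wholly within a retained bin. The NF-kB core GGNNNTTCC was present in 26 of them (29.9%), against 22.6% of 7257 promoter windows within bins called in all 4 libraries without PAM3 and 18.7% of 31396 windows of the whole table. Mfap1a held it as GGACCTTCC from base 91 of its printed sequence and Fcgr3 as GGGTTTTCC from base 100. The ETS motif GAGGAAG, bound by the macrophage factor PU.1, was in 9 (10.3%, against 14.5% and 13.4%), among them Fcgr3 on the reverse strand. The C/EBP motif TTGCNNAA was in 6 (6.90%, against 8.32% and 10.9%), also among them Fcgr3. AP-1 letters TGANTCA were in 2 (2.30%, against 4.75% and 7.85%), and the interferon-response core GAAANNGAA was in 3 (3.45%, against 7.18% and 8.52%). The E-box CACGTG was in 3 (3.45%, against 11.1% and 7.14%) and the TATA letters TATAAA in 9 (10.3%, against 6.23% and 13.6%). Median GC content was 58.7%, between 62% for windows called without PAM3 and 53% for the whole table, with medians of 18, 22 and 7 CpG sites. The ETS and NF-kB letters can overlap at shared TTCC bases. Several starts of a gene share sequence, so the windows are not independent.

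The called length shows how the rule sorted the bins. In retained bins the median was 877 and 829 bp in untreated A and B, 788 and 849 bp in 25HC A and B, 75.5 and 123 bp in PAM3 A and B, and 604 and 659.5 bp in A and B given 25HC then PAM3. The level after 25HC then PAM3 thus lay below that without PAM3 in both mice; the rule required a call in all 4 libraries without PAM3 but in only 1 of these 2. Peaks were absent from both PAM3 libraries in 459 of the 1518 bins (30.2%), from 1 of them in 496 (32.7%) and from neither in 563 (37.1%). In the last class the PAM3 peak reached into the bin for less than 500 bp.

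Many retained bins lay near the threshold. A PAM3 library came within 100 bp of the required length in 482 retained bins, and 1800 bins were left out only because a PAM3 library passed it by less than 100 bp. In 340 retained bins the longer of the lengths after 25HC then PAM3 passed it by less than 100 bp, and 335 bins missed it there by at most 100 bp.

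**Figure D1:**
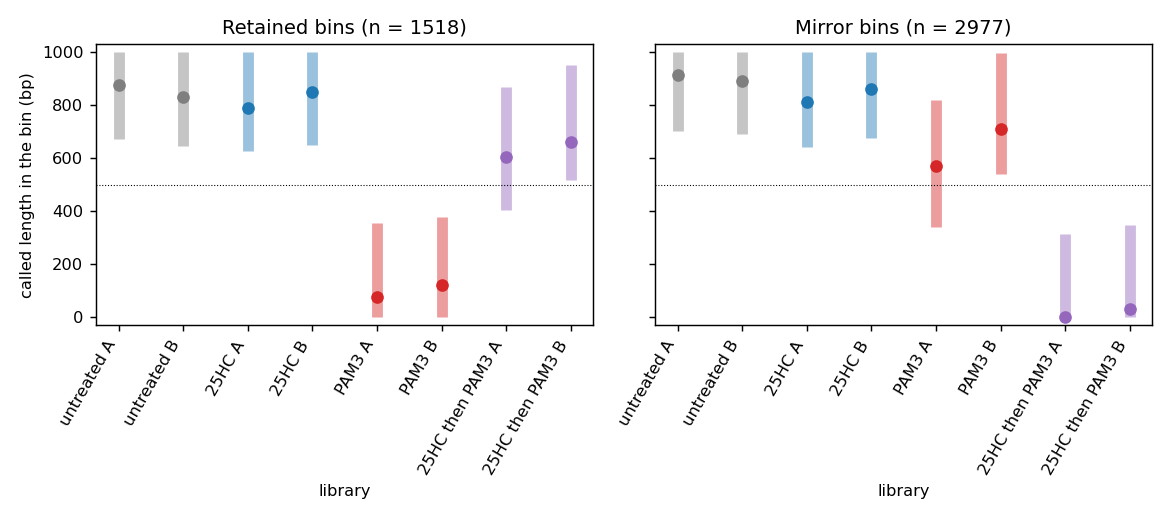
Called length per 1 kb bin (y axis, bp) in each of the 8 libraries (x axis), for the 1518 retained bins and the 2977 bins of the opposite pattern. Points are medians, bars run from the lower to the upper quartile and the dotted line is the 500 bp that make a call; PAM3 medians are 75.5 and 123 bp in retained bins, where those after 25HC then PAM3 are 604 and 659.5 bp.

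Retention was seen in both mice in 712 bins (46.9%), in mouse A alone in 319 (21.0%) and in mouse B alone in 487 (32.1%). The opposite pattern, bins lacking a call in both libraries given 25HC then PAM3 but called in at least 1 given PAM3 alone, was more frequent, with 2977 bins and 1399 called in both PAM3 libraries. The ratio of opposite to retained bins was 1.96 in the full count and 1.96 where both libraries had to agree. Another 2394 bins lacked a call in all 4 libraries given PAM3. Of the 3912 bins in neither library given PAM3 alone, 38.8% were retained. Of the 5371 in neither library given 25HC then PAM3, 55.4% were called in at least 1 library given PAM3 alone.

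This ratio depends on how many libraries must lack a bin. Without PAM3 mouse A the retained bins numbered 3255 and the ratio was 0.772, and without PAM3 mouse B they numbered 4625, with 1864 opposite bins and a ratio of 0.403. Without mouse A of 25HC then PAM3 there were 5029 opposite bins and the ratio was 4.19, and without mouse B 5649 and 5.48. In each of these, 1 pattern's absent calls rested on a single library, and by construction that pattern then gained bins relative to the other. With every library cut to the same covered length, 1185 bins had the retained and 2522 the opposite pattern when peaks were ordered by −log10 q, of which 795 and 1751 were among the 1518 and 2977. With peaks ordered by length the counts were 1442 and 2997, of which 1136 and 2350 were shared.

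Calls that are absent from only 1 of the 4 groups give a scale for the 712 bins. Bins called in the 6 other libraries and in neither library of the group numbered 260 for untreated cells, 320 for 25HC, 712 for PAM3 and 1399 for 25HC then PAM3. Those with no peak of the group in the bin or its neighbours numbered 73, 61, 158 and 360. The counts for the groups given PAM3 exceeded those for the groups without it, and the largest was that of 25HC then PAM3.

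**Figure D2:**
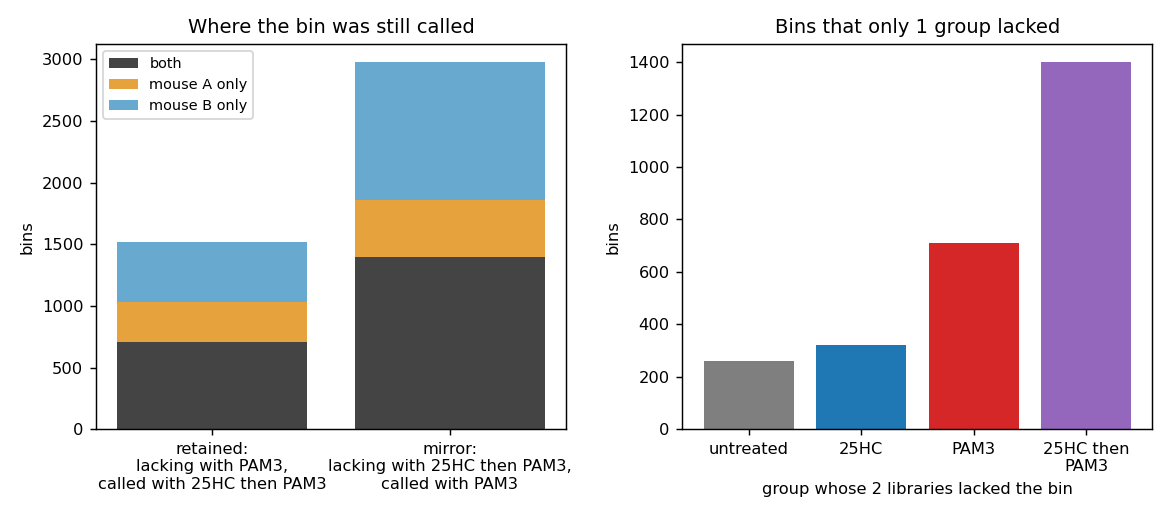
Left, number of bins (y axis) of the retained and the opposite pattern, split by whether the bin was still called in both mice (712 and 1399 bins), in mouse A only or in mouse B only. Right, number of bins that both libraries of 1 group lacked and the 6 other libraries had, from 260 for untreated cells to 1399 for 25HC then PAM3.

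Within single mice the pattern repeated in part. In mouse A alone, 4802 bins were called untreated and with 25HC, not with PAM3, and again with 25HC then PAM3. Of the 3490 of these that mouse B also had in its untreated and 25HC libraries, 20.4% had the same pattern in mouse B and 12.2% the opposite one. Starting from mouse B, 26.0% of 2737 bins had the same pattern in mouse A and 10.01% the opposite one. Opposite-pattern bins recurred more often, in 36.0% of 3888 bins from mouse A to B and in 32.1% of 4365 from B to A. By each mouse's own libraries, the opposite pattern had 4833 bins against 4802 in mouse A, a small excess, and 5880 against 3782 in mouse B. A more frequent pattern recurs more often by count alone, and its part in these shares was not tested. Among the 39826 bins called in all 4 libraries without PAM3, the opposite pattern had 3888 bins against 3490 of the retained pattern in mouse A. In mouse B it had 4365 against 2737. These shares were not tested.

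The longest retained stretches included 2 at Tlr4, the receptor for bacterial lipopolysaccharide, whose gene body is chr4:66827551-66846581. The 3 bins chr4:66827001-66830000, over the left end of the gene, had 3000 bp called in both untreated, both 25HC and both 25HC then PAM3 libraries, and 0 bp in PAM3 A and B. A stretch of 3 further bins, chr4:66795001-66798000, lay 29551 bp outside that end. Its called length was 2579 and 2544 bp untreated, 2526 and 2540 bp with 25HC, 0 bp in both PAM3 libraries, and 2454 and 2138 bp with 25HC then PAM3. A single bin farther out, chr4:66769001-66770000, had 546 to 986 bp in the 4 libraries without PAM3, 0 bp in both PAM3 libraries, and 1000 and 626 bp with 25HC then PAM3. All 7 bins held no PAM3 peak in either mouse, while a peak farther into the gene stayed in every library.

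Over the whole Tlr4 window, which reaches 5 kb past each gene end, called length was 6110 and 6283 bp untreated, 6610 and 6822 bp with 25HC, 2264 and 2943 bp with PAM3, and 8609 and 10651 bp with 25HC then PAM3. The libraries given 25HC then PAM3 were the highest and those given PAM3 alone the lowest. The 25HC libraries lay slightly above the untreated ones, in a window whose retained bins had to be called in all 4. Tlr4 held at least 3 retained bins in all 18 settings compared, the reported one included. In the settings that leave out an untreated, 25HC or PAM3 library, every retained bin stays by construction.

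**Figure D3:**
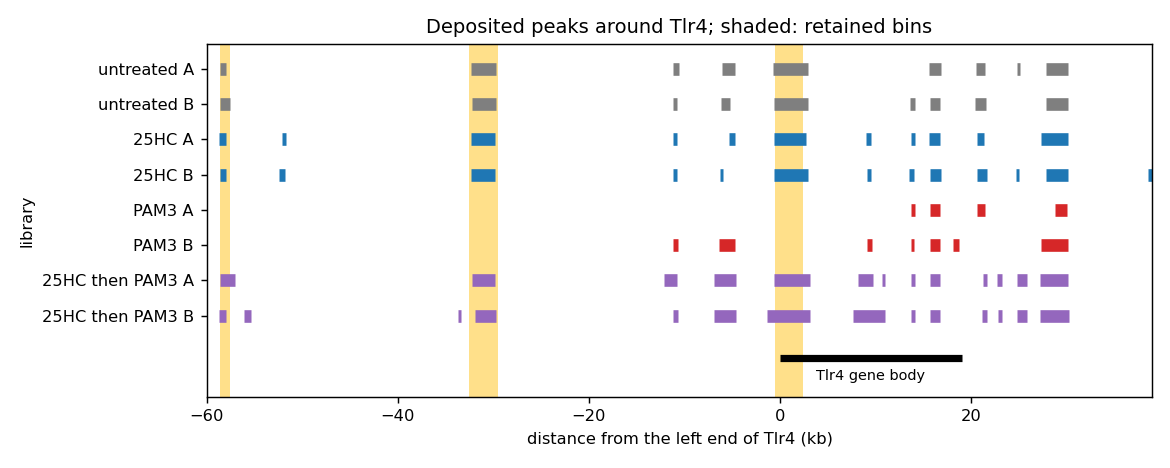
Deposited peaks (horizontal bars) in the 8 libraries (y axis) by distance from the left end of the Tlr4 gene (x axis, kb), with the retained bins shaded and the gene body in black. Both PAM3 libraries have no peak in the 7 shaded bins, where the other 6 libraries have peaks; a peak inside the gene to the right of the shading is present in all 8.

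Ninj1, which encodes ninjurin-1, the membrane protein that ruptures dying cells, carried the other 3-bin stretch covered in full, chr13:49188001-49191000. It had 3000 bp called in all libraries except PAM3, where A had 0 bp and B 572 bp. A further retained bin, chr13:49201001-49202000, lies beyond the other end of Ninj1, with 438 and 463 bp in PAM3 A and B against 798 to 1000 bp elsewhere, just under the threshold.

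Stretches of 2 bins covered in full in all 6 other libraries lay in Myh10, a non-muscle myosin heavy chain, and beside Id2, an inhibitor of basic helix-loop-helix factors. The Myh10 stretch, chr11:68706001-68708000, had 673 bp in PAM3 A and 0 bp in PAM3 B. The stretch chr12:25099001-25101000, 2909 bp from Id2, had 215 bp in PAM3 A and 0 bp in PAM3 B. In both, mouse A kept a partial PAM3 peak and mouse B none.

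In Mgam, the intestinal maltase-glucoamylase gene, 3 adjoining bins, chr6:40730001-40733000, had 2437 and 2345 bp untreated, 2613 and 2700 bp with 25HC, 0 bp in both PAM3 libraries, and 2265 and 1828 bp with 25HC then PAM3. In Mtmr3, a phosphoinositide phosphatase, the stretch chr11:4535001-4538000 had 2757 to 2835 bp without PAM3, 721 and 577 bp with PAM3, and 1309 and 2764 bp with 25HC then PAM3. In the latter only mouse B was near its level without PAM3.

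Near Fosb, an AP-1 subunit gene 7883 bp away, chr7:19318001-19321000 had 2203 to 2313 bp without PAM3, 503 and 478 bp with PAM3, and 2162 and 1069 bp with 25HC then PAM3. At chr14:121436001-121438000, 21621 bp from the peptide transporter gene Slc15a1, the lengths were 1618 to 1713 bp, then 0 and 212 bp, then 2000 bp in both. In Iqsec1, an exchange factor for ARF GTPases, chr6:90755001-90757000 had 1618 to 2000 bp, then 107 and 591 bp, then 2000 bp in both. At the last 2 loci the peak with 25HC then PAM3 filled the stretch, at least as long as in any library without PAM3.

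Such stretches were rare. The 1518 bins formed 1414 runs, of which 1316 (93.1%) were single bins, 92 were pairs and 6 were runs of 3. Retained bins without any PAM3 peak in the bin or either neighbour numbered 310 (20.4%), and 158 of these were retained in both mice. Another 670 (44.1%) adjoined a bin that was called in at least 1 PAM3 library, and 538 were of neither kind. Of the retained bins, 80.0% adjoined a bin called in at least 1 library without PAM3. This share was 81.7% for opposite-pattern bins and 80.2% for bins absent from all 4 PAM3 libraries. Of opposite-pattern bins, 43.3% adjoined a bin called in at least 1 library given 25HC then PAM3, near the 44.1% above.

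**Figure D4:**
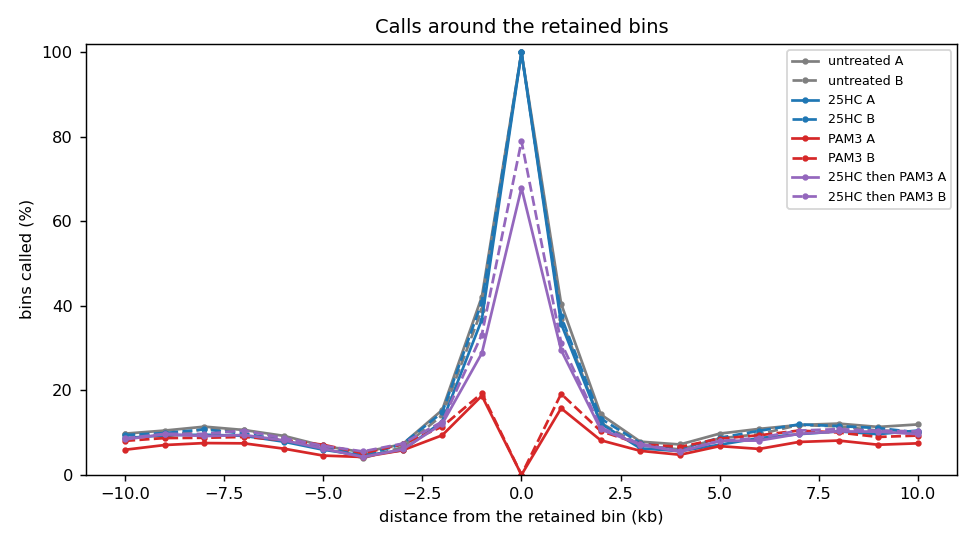
Percent of bins called (y axis) by distance from the retained bin (x axis, kb) in each library; solid lines are mouse A and dashed lines mouse B, and the centre is set by the choice of bins. At 2 kb, averaged over both sides, 8.76% (PAM3 A) and 10.9% (PAM3 B) of bins were called, against 11.4% and 11.9% with 25HC then PAM3 and 12.4% to 14.8% without PAM3.

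The difference between groups was narrow. At 2 kb from the retained bin, 8.76% and 10.9% of bins were called in PAM3 A and B, 11.4% and 11.9% with 25HC then PAM3, 14.8% and 13.2% untreated, and 12.4% and 14.0% with 25HC. At 5 kb the range over all 8 libraries was 5.67% (PAM3 A) to 8.30% (untreated A), with PAM3 B at 7.84%, inside the range of the libraries without PAM3.

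Retained bins lay away from gene ends more often than bins called throughout. Within 1 kb of a gene end were 16.9% of retained bins, 14.1% of opposite-pattern bins and 12.9% of bins absent from all 4 PAM3 libraries, against 42.5% of the 24917 bins called in all 8 libraries. Inside genes but away from their ends were 45.8% of retained bins, and outside genes 37.3%, against 32.3% and 25.2% of bins called in all 8. Of the 39826 bins called in all 4 libraries without PAM3, 34.1% lay near gene ends, 37.8% inside genes and 28.1% outside. For bins called in at least 1 library the shares were 19.7%, 49.2% and 31.1%, closer to those of the retained bins. These shares were not tested. With only peaks of a −log10 q of at least 5, the rule picked 1437 bins, of which 230 were among the 1518. Of these 1437, 35.9% lay near gene ends, against 46.6% of the 1662 bins called in all 8 libraries under that filter. Full coverage in all 4 libraries without PAM3 was found for 20.6% of retained bins and 38.8% of bins called in all 8. The retained share of bins ran from 2.91% on chromosome 11 to 5.94% on chromosome 14.

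At start sites, 141 annotated starts of 125 genes, 96 of them protein-coding, fell in retained bins. Opposite-pattern bins held 172 starts of 164 genes, and bins called in all 4 libraries without PAM3 held 10269 of 8872. Within 1 kb of a start lay 17.7%, 13.5% and 32.6% of these 3 sets of bins, in that order. Genes named for a start in a retained bin included Dnmt3a, a de novo DNA methyltransferase. Its bin chr12:3807001-3808000 had 1000 bp in all 6 other libraries and 46 and 55 bp in PAM3 A and B. Vash1, an angiogenesis inhibitor and tubulin carboxypeptidase, had 674 to 728 bp without PAM3, 495 and 0 bp with PAM3, and 703 and 749 bp with 25HC then PAM3. Arhgef40, a guanine nucleotide exchange factor gene, had 658 to 799 bp, then 117 and 90 bp, then 549 and 515 bp. Of these 3, only at Dnmt3a did the PAM3 libraries lie far from the threshold and the libraries given 25HC then PAM3 at full length.

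Drd1, a dopamine receptor, had 745 to 836 bp without PAM3, 0 and 345 bp with PAM3, and 657 and 517 bp with 25HC then PAM3. Lrrc23, a leucine-rich repeat gene, had 680 and 760 bp untreated and up to 735 bp with 25HC, then 0 and 413 bp, then 531 and 595 bp. Ltbp1, which binds latent TGF-beta, had 656 to 1000 bp, then 247 and 0 bp, then 804 and 862 bp. These 3 bins were cleared in 1 mouse and shortened in the other.

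Of 12568 protein-coding genes whose window held a bin called in all 4 libraries without PAM3, 1015 had at least 1 retained bin (8.08%), 152 had at least 2 and 28 at least 3. Drosha, the nuclease that cuts primary microRNAs, had 4 retained bins of its 5 such bins, all free of PAM3 peaks. Of these, 3, among them the bin chr15:12824001-12825000 at its left end, were called after 25HC then PAM3 in mouse A and had 0 bp in mouse B; the bin chr15:12865001-12866000 had 0 bp in mouse A and 1000 bp in mouse B. Over the Drosha window called length was 4694 and 5233 bp untreated, 5558 and 5560 bp with 25HC, 0 bp in both PAM3 libraries, and 3072 and 1606 bp with 25HC then PAM3. Both mice thus held some of the peaks, but no bin was shared.

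Il18r1, the interleukin-18 receptor, had 4 retained bins, each called after 25HC then PAM3 in 1 mouse only. Its window held 7125 and 6073 bp untreated, 5126 and 4614 bp with 25HC, 0 and 883 bp with PAM3, and 1308 and 3008 bp with 25HC then PAM3. The level after 25HC then PAM3 was below every library without PAM3. Cmtm6, a membrane protein that stabilises PD-L1, had 2 adjoining bins at its left end, chr9:114730001-114732000, that were free of PAM3 peaks. In the first of them all 6 other libraries had 1000 bp called. The Cmtm6 window as a whole had 4267 bp in PAM3 A and 0 bp in PAM3 B, so the mice differed beyond these bins.

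Tec, a cytoplasmic tyrosine kinase, Arhgap22, a GTPase-activating protein, and Maml2, a Notch coactivator, had 4 retained bins each, of 17, 18 and 26 bins called without PAM3. Maml2 also had 4 bins of the opposite pattern and 3 that lacked a call in all 4 libraries given PAM3, while Tec had 1 opposite bin and Arhgap22 0. Most bins of these long genes were still called in at least 1 library of each group given PAM3. PAM3 window lengths were 13786 and 19914 bp for Tec against 21326 to 27665 bp without PAM3. For Maml2 they were 17261 and 28402 bp against 34108 to 35140 bp, and for Arhgap22 20422 and 20428 bp against 20579 to 30310 bp. Hepacam2, a cell adhesion gene, had 3 of 4 and Auts2, a Polycomb-associated gene, 3 of 5. The Auts2 window held 5355 to 6827 bp without PAM3, 1810 and 2438 bp with PAM3, and 5522 and 6275 bp with 25HC then PAM3, so both mice were back in the range without PAM3.

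**Figure D5:**
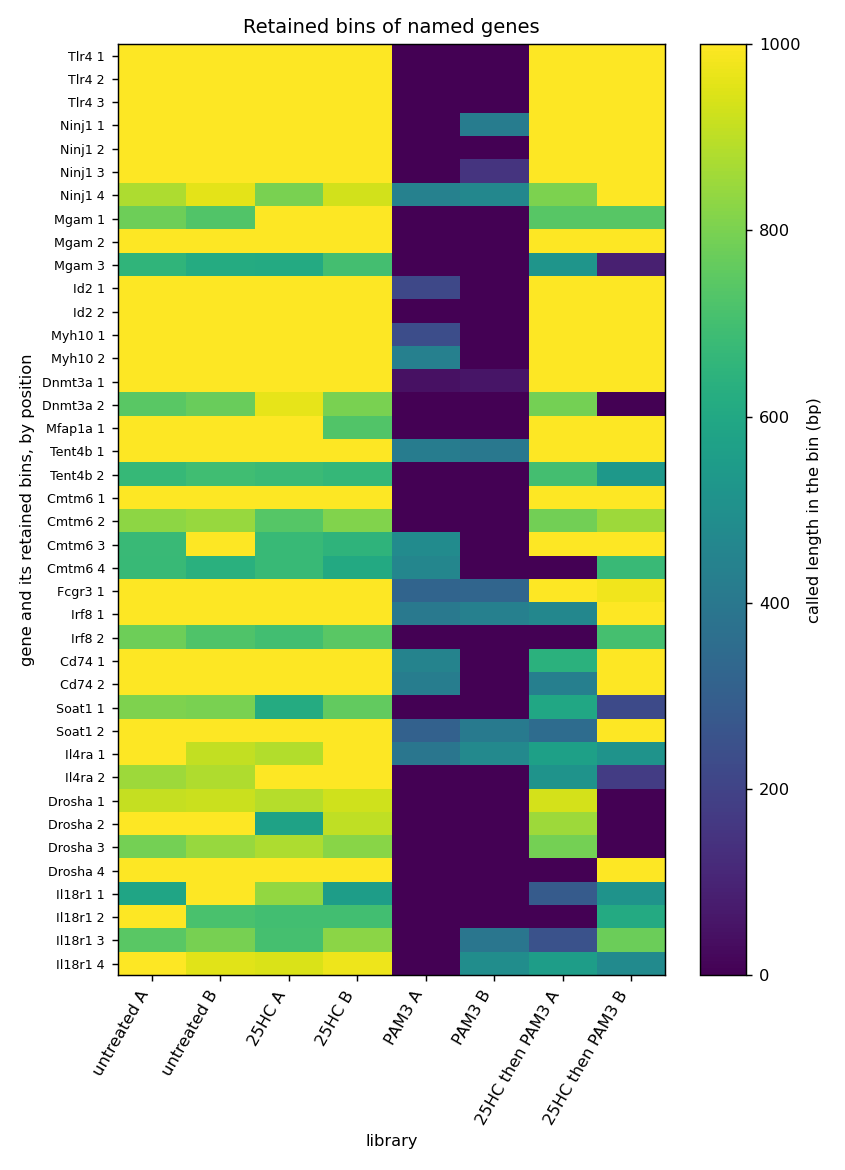
Called length (colour, 0 to 1000 bp) of the retained bins in the windows of 16 named genes (rows, numbered by position within a gene) in the 8 libraries (columns). The Tlr4 rows are at 0 bp in both PAM3 libraries and 1000 bp elsewhere, whereas the Drosha and Il18r1 rows are retained in 1 mouse only.

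Gene lists describe which functions carried retained bins. Over all protein-coding genes, 3.22% of bins called without PAM3 in gene windows were retained and 6.43% had the opposite pattern. Among Toll-like receptors and adaptors it was 5 of 77 bins (6.49%), in 3 of 19 genes: Tlr4, the flagellin receptor Tlr5 and the kinase Irak2. The same list had 8 opposite-pattern bins (10.4%), 1 each in Tlr4, Tlr5 and Irak2 among them, so both patterns were more frequent there than over all genes. The retained Irak2 bin, 52534 bp from the nearest start site, had 504 to 579 bp without PAM3 and 168 and 278 bp with PAM3. Both libraries given 25HC then PAM3 had 1000 bp there, above every other library. The whole Irak2 window held 16561 to 18174 bp without PAM3 and 20334 and 20425 bp with 25HC then PAM3. With PAM3 alone it held 15808 and 19777 bp, below that range in mouse A and above it in mouse B. For interferon-stimulated genes and regulatory factors it was 6 of 92 bins (6.52%), in Irf2, Irf5, Irf7, Irf8 and Stat2, and 0 had the opposite pattern. Each of these 6 bins was called after 25HC then PAM3 in only 1 mouse.

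Irf8, a factor that directs monocyte and macrophage development, had 2 adjoining bins, chr8:120737001-120739000. The first had 1000 bp in all 4 libraries without PAM3, 405 and 435 bp with PAM3, and 463 and 1000 bp with 25HC then PAM3. The second had 697 to 780 bp without PAM3, 0 bp with PAM3, and 0 and 707 bp with 25HC then PAM3. Both bins were retained in mouse B only. The whole Irf8 window held 9433 and 8501 bp untreated and 6887 and 7437 bp with 25HC. It held 4947 and 7019 bp with PAM3, and 4590 and 6618 bp with 25HC then PAM3. Within each mouse it was thus shorter with PAM3 than without it, as the bins were, but not longer after 25HC then PAM3. The bins of Irf5 and Irf7 had 477 and 497 bp and 455 and 459 bp in PAM3 A and B, so they missed a call by less than 50 bp.

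Lipid genes were spread over several steps of cholesterol metabolism. Of bins of cholesterol synthesis and SREBP targets 3 of 66 were retained (4.55%) and 0 had the opposite pattern. A retained bin lay beside Fdft1, squalene synthase. The Fdft1 bin had 1000 bp in both untreated libraries, 751 and 1000 bp with 25HC, 0 bp in both PAM3 libraries, and 0 and 795 bp with 25HC then PAM3, so it was retained in mouse B only. The whole Fdft1 window was not shorter with PAM3, with 4542 and 5523 bp untreated and 5175 and 5984 bp with PAM3.

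The LXR and lipid-handling list had 7 of 156 bins (4.49%) and 10 opposite ones (6.41%), the former in Mertk, Nr1h4, Soat1, Nceh1, Pparg and Cd36. Soat1, which esterifies cholesterol for storage, had 1 bin retained in each mouse, and its whole window hardly followed them, with 8781 to 12242 bp without PAM3 and 10197 and 11726 bp with PAM3. Cd36, a scavenger receptor, had 700 to 1000 bp in its bin without PAM3, 227 and 343 bp with PAM3, and 1000 and 756 bp with 25HC then PAM3. Mertk, a receptor for engulfing dead cells, had 1000 bp, then 338 and 237 bp, then 1000 and 825 bp. Their whole windows did not follow these bins. The Cd36 window held 14197 to 18732 bp without PAM3 and 18698 and 22962 bp with PAM3. For Mertk the window held 15923 to 20749 bp without PAM3 and 15659 and 17048 bp with PAM3. With 25HC then PAM3 it held 14844 and 16495 bp.

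The alternative activation list had 6 of 72 bins (8.33%), in Arg1, Il4ra, Pparg and Pdcd1lg2. Opposite-pattern bins were more numerous there, with 10 of 72 (13.9%), of which Pdcd1lg2 had 4. The bin beside Arg1, the arginase of interleukin-4-activated macrophages, had 551 to 588 bp without PAM3, 368 and 403 bp with PAM3, and 1000 bp in both libraries given 25HC then PAM3. Il4ra, the interleukin-4 receptor, had 1 bin retained in both mice (394 and 471 bp with PAM3, 569 and 514 bp with 25HC then PAM3) and 1 in mouse A only. Both bins of Pdcd1lg2, which encodes PD-L2, were retained in mouse A only, and mouse B had 0 bp there. Cd74, the class II invariant chain, had both retained bins of the antigen presentation list (2 of 70, 2.86%), which had 9 opposite bins (12.9%). Its window had 3654 to 4487 bp without PAM3, 3183 and 0 bp with PAM3, and 3273 and 4337 bp with 25HC then PAM3, so PAM3 A was near the libraries without PAM3 and PAM3 B had no peak.

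The remaining lists were at or below the share over all genes. Cytokines and chemokines had 1 of 54 bins (1.85%), in the chemokine gene Ccl9, and inflammatory effectors and NF-kB feedback 3 of 114 (2.63%), in Nfkb1, Tnfaip3 and Acod1. Macrophage identity had 2 of 142 (1.41%), in Mertk and Fcgr3, the integrated stress response 1 of 47 (2.13%), in Mthfd2, and housekeeping 1 of 41 (2.44%), in Gapdh. Lymphocyte (12 bins), neutrophil (21), dendritic cell (26), fibroblast, endothelial and erythroid (25) and silent genes (1) had 0. Their opposite-pattern bins numbered 2 for cytokines, 6 for inflammatory effectors, 11 for macrophage identity (7.75%), 1 each for the stress response and housekeeping, 2 each for lymphocyte, neutrophil and fibroblast, endothelial and erythroid genes, 1 for dendritic cell and 0 for silent genes. Counts this small were not tested, and 1 bin more or less changes a share in lists of under 100 bins by over 1 percentage point.

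The choice of bins required a call in both untreated and both 25HC libraries, so a bin that 1 of these groups lacked could not be retained. What the choice did not use was the authors' fold enrichment of the peaks, compared here over all 39826 bins that met the same requirement. Across these bins, 0 (0.0%) differed between 25HC and untreated cells in either direction at an adjusted p under 0.05 in limma, and 0 did with the authors' −log10 q. At an unadjusted p under 0.05 were 2256 bins (5.66%), and of the 1518 retained bins 113 (7.44%). The median enrichment of the retained bins differed from that of all bins, on the log2 scale, by −0.05 and −0.06 in untreated A and B and by −0.04 in 25HC A and B. The difference between 25HC and untreated was 0.017 (exact two-sided permutation test, p = 0.333, the smallest that 2 libraries against 2 allow). The authors' enrichment values correlated by a Spearman coefficient of 0.0605 to 0.267 between libraries across the 24917 bins called in all 8, whereas covered bp within 3 kb correlated by 0.642 to 0.842, so these per-peak values were only weakly shared between libraries. Within a library, the enrichment of adjoining peaks correlated by a Spearman coefficient of 0.47 to 0.53, and enrichment with peak width by 0.0165 to 0.0421. Whether the deposited values stand beside the peaks they were computed for was not tested. The bin comparison, the −log10 q filters and orderings, and the order of the start-site genes rest on these values.

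For called length in gene windows, 1 of 14179 genes was higher (0.00705%) and 4 were lower (0.0282%) with 25HC than untreated at an adjusted p under 0.05 (limma). These windows include the retained bins, whose called lengths in both groups entered the choice, so the values of genes with a retained bin are a description. Of 1011 such genes 0 were among the 5, and 35 (3.46%) had an unadjusted p under 0.05, against 665 of all 14179 (4.69%). Their median log2 difference was −0.01, against 0.01 over all genes. For single genes the difference, on the log2(bp + 500) scale, was 0.17 ± 0.11 (SE) for Tlr4, −0.25 ± 0.21 for Ninj1, 0.21 ± 0.28 for Drosha, −0.34 ± 0.46 for Il18r1 and −0.24 ± 0.17 for Irf8. In the same fit PAM3 minus untreated was −1.07 for Tlr4 and −0.93 for Ninj1, and 25HC then PAM3 minus 25HC was 0.46 and −0.27.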

How the data were processed

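H4 acetylation was measured in 8 libraries, 2 in each of 4 groups, grouped by the labels. The submitters' processing notes name GSNAP, MACS2 2.1.0 and the build GRCm38 (mm10). Each library has 1 deposited list of broad peaks. The authors' enrichment is a fold ratio per peak, their −log10 q was used as deposited, and the deposited score, not used, was 10 times that value cut to a whole number in at least 99.99% of peaks. For control libraries and calling thresholds, the sources used here give nothing. Without read counts the depth is unknown, and intervals for counting error were not computed.

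Called bp per 1 kb bin and per gene window (RefSeq, GRCm38.p6, body with 5 kb on either side) were computed with Python 3.11.15, numpy 2.4.6 and pandas 2.3.3. Limma 3.58.1 in R 4.3.3 (trend, robust, Benjamini-Hochberg adjustment) compared 25HC with untreated cells, with each library centred on its median. For bins it used log2 enrichment in 4 libraries. For genes with a mean of at least 500 bp it used log2(bp + 500) in all 8. Both fits were run on simulated data with independent features, whereas bins within 1 peak share its enrichment. The outcome is not given here, so the power of 2 libraries against 2 is not stated. Libraries of a group come from different mice, and letters mark the same mouse across groups, per the labels; deviations of same-mouse libraries correlated by −0.0174 to 0.0320. Named were the 10 longest runs of retained bins, the 10 genes with most retained bins, 10 start-site genes ordered by enrichment, and list genes with at least 2 retained bins, skipping predicted genes; other genes were named after their values were seen, and 1 that the rule picked is not reported here. The retained bins, gene lists and tests were chosen with earlier results of these data known. Alternatives covered the call threshold, peak filters, bin frame, libraries left out and the mouse as a block.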

Additional observations from a re-analysis of the deposited data

Results flagged for a closer look

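In 8 named genes, the called length of the whole window moved down with PAM3 in both mice without 25HC and up in both mice after 25HC. The choice of bins favours this direction, and the difference was not tested. Only genes reported here among the 31 named, which hold retained bins, were searched. The share of all gene windows that moved this way was not computed. In the Tlr4 window the change with PAM3, averaged over both mice, was −3593 bp without 25HC and 2914 bp after it. At Iqsec1 it was −2552 bp and 2497 bp. The windows of Mfap1a and Wdr76 share the bin between them, so they count the same peak, with −1963.5 and 648.0 bp for Mfap1a and −2130.5 and 822.5 bp for Wdr76. Tent4b showed −1038.5 and 2145 bp, Id2 −1681 and 241.0 bp, Lrrc23 −666.5 and 391.0 bp, and Prkd2 −192.0 and 615.0 bp.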

How the results depend on the processing

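The excess of opposite over retained bins kept its direction except without PAM3 mouse A (0.772) or mouse B (0.403); the other settings gave a ratio of 1.29 to 5.48. Retained and opposite bins numbered 459 and 1119 where the lacking libraries had to be at 0 bp, 712 and 1399 where both libraries had to be called, and, in an alternative chosen after seeing the data, 838 and 1714 among bins beside another bin called in all 4 libraries without PAM3. With only peaks of a −log10 q of at least 5 they numbered 1437 and 1846, of which 230 and 532 were among the bins reported. Which bins were picked also changed with the call threshold: 716 of the 1518 retained bins were picked at 250 bp and 486 at 750 bp. Leaving out 1 library at a time gave 1031 to 4625 retained and 1864 to 5649 opposite bins.

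With the mouse as a replicate block, 0 retained bins and 0 genes with a retained bin passed for 25HC against untreated, as without it (limma), and the enrichment difference was 0.017. Over all genes, 5 passed, against 0 with the block, 0 with the −log10 q filter and 0 to 96 with 1 library left out. Library depth is unknown, and a bin without a call may hold reads under the caller's threshold. Of the 31 named genes, 5 held a retained bin in all 18 settings: Tlr4, Ninj1, Id2, Maml2 and Dnmt3a. Leaving out an untreated, 25HC or PAM3 library only loosens the rule. All 1518 bins then stay by construction, so those settings could not remove a gene.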

Other observations

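Chromosomes X and Y, which the choice of bins left out, held 960 bins called in all 4 libraries without PAM3. Of these, 35 had the retained pattern and 69 the opposite one.

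Chosen after their values were seen, 2 loci resembled Tlr4 and Id2. In Clec1a, a C-type lectin receptor gene, the bin chr6:129434001-129435000 had 1000 bp called in all 6 libraries other than PAM3 and 0 bp in PAM3 A and B, and the adjoining bin, chr6:129435001-129436000, had 834 to 1000 bp in those 6 libraries and 0 bp in both PAM3 libraries. At the right end of Blnk, an adaptor of B cell and macrophage signalling, the bin chr19:40994001-40995000 had 1000 bp in the same 6 libraries, 212 bp in PAM3 A and 0 bp in PAM3 B. The next bin, chr19:40995001-40996000, had 943 to 1000 bp in those 6 libraries and 0 bp in both PAM3 libraries.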
